A study of Homo sapiens with 21 samples.

Results

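The 36 genes described here encode aminoacyl-tRNA synthetases, 20 of them working in the cytosol and 16 in mitochondria. They were chosen by symbol from the 27142 genes of the deposited expression table, the mitochondrial enzymes being those whose names end in ARS2, and all 36 were found. Messenger RNA had been sequenced 48 h after plasmids were delivered with a lipid reagent to HEK 293FT, a fast-growing kidney line of human embryonic origin that carries the SV40 large T antigen. The series set short hairpin RNAs (shRNAs), which guide Argonaute proteins to messenger RNA, beside RfxCasR, a CRISPR nuclease that cuts RNA. The 7 groups of 3 libraries were cells given an ANXA4 shRNA, a B4GALNT1 shRNA or a non-targeting (NT) shRNA, cells given RfxCasR with a B4GALNT1 guide RNA (gRNA) or an NT gRNA, and cells given RfxCasR with an ANXA4 guide array or an NT array. All groups were the same line at passages 8 to 12. The labels name neither untransfected cells nor a count of the cells that took up plasmid. They call the replicates biological and say no more of them, and what the p-values capture is the spread among such libraries, part of which may be technical.

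Each synthetase joins 1 amino acid to its transfer RNAs, the step at which the genetic code is read. Human cells keep a cytosolic set and a separate mitochondrial set, both encoded in the nucleus. The genes for glycine (GARS) and lysine (KARS) supply enzyme to both compartments, EPRS carries the glutamate and proline activities in a single chain, and FARSA and FARSB are the subunits of the phenylalanine enzyme. Several cytosolic synthetases form the multisynthetase complex on the scaffold proteins AIMP1, AIMP2 and EEF1E1. Many cytosolic synthetase genes, but not the mitochondrial ones as a class, are known targets of ATF4, the transcription factor that raises amino acid supply under amino acid shortage and other stress. ATF4 binds C/EBP-ATF response elements (CARE) together with C/EBP proteins.

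Promoter stretches with the CARE letters are shown because 12 of the cytosolic genes are listed as ATF4 targets, and whether ATF4 acts on them was not tested. RefSeq promoter windows of GRCh38.p14, from 250 bases before to 50 after a transcription start, were given for 30 of the 36 genes. RefSeq names the cytosolic genes with a final 1 (AARS1 for AARS). The letters TGATGNAA, the core of the CARE, were searched on both strands. They occurred in a window of 4.46% of 27305 genes. Among 12 cytosolic genes listed as ATF4 targets, 10 had a window and 7 of these held a match. None of the 6 windows of other cytosolic genes held one, and among 14 mitochondrial genes YARS2 alone did. A match is a description of these letters and not a measured binding site. The matches lie at chr16:70289675-70289704 (AARS), chr11:3057407-3057436 (CARS), chr7:30594834-30594863 (GARS), chr9:92293692-92293721 (IARS), chr12:57488053-57488082 (MARS), chr18:57621804-57621833 (NARS), chr5:33440956-33440985 (TARS) and chr12:32756076-32756105 (YARS2). The stretches are printed on each gene's own strand, which is plus for GARS, MARS and TARS and minus for the others, with the matched letters in capitals.
AARS: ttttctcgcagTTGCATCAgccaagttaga
CARS: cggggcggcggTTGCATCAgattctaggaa
GARS: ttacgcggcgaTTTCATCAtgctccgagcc
IARS: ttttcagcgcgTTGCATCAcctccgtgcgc
MARS: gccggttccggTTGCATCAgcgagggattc
NARS: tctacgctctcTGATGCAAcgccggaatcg
TARS: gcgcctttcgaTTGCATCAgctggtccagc
YARS2: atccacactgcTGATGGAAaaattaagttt
In 5 of the 7 cytosolic stretches the letters read TTGCATCA, and NARS holds the same site in the other orientation. GARS has TTTCATCA.

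The motif CCGGAAG, bound by ETS-family factors, was found in windows of 16 of the 30 genes, against 12.2% of all genes. The E-box CACGTG was found for 4 of the 30 (IARS, CARS2, EARS2 and MARS2), against 8.77% of all genes. The motifs do not contain each other. HARS and HARS2, the cytosolic and mitochondrial histidine enzymes, start back to back on chromosome 5. The 84 bases between their RefSeq starts, chr5:140691371-140691454 on the plus strand, are shown because the transcripts read from either side moved in opposite directions with the ANXA4 shRNA. Capitals mark the 2 ETS matches, 1 near each start.
HARS-HARS2: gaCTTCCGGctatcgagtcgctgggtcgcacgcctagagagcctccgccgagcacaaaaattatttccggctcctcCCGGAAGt

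Expression is given as FPKM, fragments per kilobase of exon scaled to library size, so that levels may be compared between genes. The array libraries were the deepest, at 34.7 to 39.5 M reads recovered from these values, against 21.4 to 30.7 M for the other 15. On the same scale the fewest reads for a synthetase gene in any library were 302 (SARS2) and the most were 18652 (TARS). These recovered numbers were 1.88 to 2.11 times the mean counts of the authors' deposited tables at the median gene, for a reason not given in the sources used here, so absolute depth is uncertain by that factor. As a check of the labels, ANXA4 averaged 2.40 ± 0.22 FPKM with its shRNA and 5.90 ± 0.378 FPKM with the NT shRNA (SD, n = 3 each). B4GALNT1 averaged 2.78 ± 0.183 FPKM with its shRNA and 4.08 ± 0.179 FPKM with the NT shRNA, and 2.21 ± 0.167 FPKM with its gRNA and 5.89 ± 0.907 FPKM with the NT gRNA. It was not so with the arrays: ANXA4 ranged over 6.77 to 7.22 FPKM where the label reads ANXA4 array and over 2.54 to 3.34 FPKM where it reads NT array. The array libraries are therefore called by their labels. Of 10 genes that mark HEK cells, 9 reached 1 FPKM and MYCN did not. PAX2 reached it in a single library, NT gRNA replicate 1, at 1.32 FPKM. Their summed level was 776 to 934 FPKM in the other 6 groups and 602 to 622 FPKM in the NT shRNA libraries, and its part in the comparisons below was not tested. VIM differed most in FPKM, with group means of 557 to 667 FPKM in the other 6 groups and 394 ± 8.81 FPKM with the NT shRNA. With the ANXA4 shRNA against the NT shRNA the list split. Of the 8 markers tested 4 were higher and 3 lower, NES among the lower ones, where 25.6% of all genes were higher and 26.3% lower. With the B4GALNT1 shRNA 5 of the 8 were higher and 0 lower, where 18.4% and 26% of all genes were. With the NT gRNA against the NT shRNA 7 were higher and 0 lower, where 22.4% and 26.5% of all genes were. Of 12 markers of blood, endothelial, fibroblast and liver cells, 9 stayed below 1 FPKM in every library and HBB was at 0, with a sum of 7.16 to 13.2 FPKM. The 3 that reached 1 FPKM were CD68, LUM and COL1A1. Most of the sum was COL1A1, with group means of 4.68 FPKM (NT array) to 9.95 FPKM (NT gRNA). In RNA from whole cultures, fewer cells of a kind and less RNA per cell cannot be told apart.

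The median cytosolic gene was expressed above the median mitochondrial gene in every group. Over the 21 libraries TARS, the threonine enzyme, had the highest mean of the cytosolic genes at 136 FPKM and CARS, the cysteine enzyme, the lowest at 27.4 FPKM, and the median was 70.7 FPKM. Among mitochondrial genes IARS2 (isoleucine) was highest at 61.2 FPKM, MARS2 (methionine) lowest at 6.13 FPKM, and the median was 17.7 FPKM. IARS2 and TARS2, at 35.4 FPKM, were the 2 mitochondrial genes above CARS. For 13 amino acids the mitochondrial symbol is the cytosolic symbol with a final 2, and the cytosolic gene was higher in 13 of 13. Phenylalanine (FARSA and FARSB with FARS2), glutamate (EPRS with EARS2) and proline (EPRS with PARS2) were not paired. The ratio was smallest for cysteine (CARS over CARS2, 1.46) and isoleucine (1.59), largest for methionine (14.2) and serine (11.9), and 3.56 at the median pair.

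TARS ran between 104 and 181 FPKM over the 21 libraries, with its highest values in the array libraries, and MARS2 between 4.99 and 7.71 FPKM. IARS2 was highest in the NT shRNA libraries, at 75.0, 73.2 and 69.6 FPKM, and at or below 64.6 FPKM in each of the others. The class medians were also compared across treatments. The median cytosolic gene stood at 66.7 ± 1.10 FPKM with the ANXA4 shRNA, 70.8 ± 0.355 FPKM with the B4GALNT1 shRNA and 75.4 ± 1.69 FPKM with the NT shRNA (SD, n = 3 each). It was 67.2 ± 2.08 FPKM with the B4GALNT1 gRNA and 68.7 ± 1.62 FPKM with the NT gRNA. The median mitochondrial gene lay between 15.6 and 17.5 FPKM in the 7 groups. The ratio of the medians ran between 3.86 ± 0.182 with the B4GALNT1 gRNA and 4.31 ± 0.033 with the NT shRNA. Between its highest and lowest group mean, the median cytosolic gene spanned 0.42 and the median mitochondrial gene 0.43 on the log2(FPKM + 1) scale, against 0.52 for all 13679 genes tested. The widest spans were 1.92-fold for AARS and 2.02-fold for VARS2, the mitochondrial valine enzyme.

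**Figure D1:**
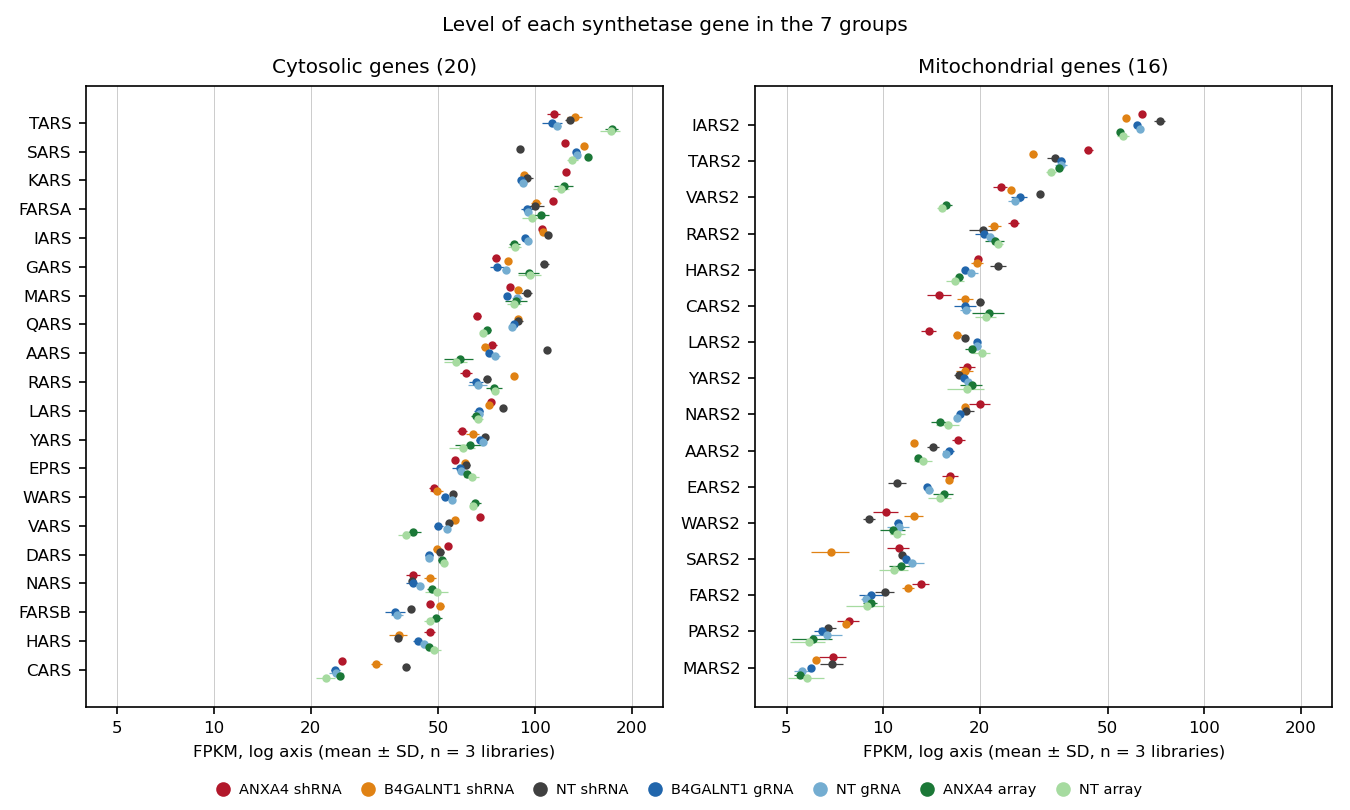
Mean FPKM (log axis) of the 20 cytosolic genes, left, and the 16 mitochondrial genes, right, in each of the 7 groups; points are means of 3 libraries and bars their SD. Cytosolic means centre near 70.7 FPKM and mitochondrial means near 17.7 FPKM, with IARS2 and TARS2 reaching the cytosolic range.

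The ANXA4 shRNA was compared with the NT shRNA to ask what else a targeting hairpin changes. Most ATF4-listed cytosolic synthetases fell: 9 of 12 were lower and 1 was higher, where 26.3% of all genes tested were lower and 25.6% higher. They were AARS, CARS, EPRS, GARS, LARS, MARS, TARS, WARS and YARS, and the exception was SARS, the serine enzyme, which rose. Among the other 8 cytosolic genes FARSA, FARSB, HARS, KARS and VARS were higher and QARS and RARS lower. Of the 16 mitochondrial genes 5 rose and 5 fell. Calls are those of limma on log2(FPKM + 1) at a Benjamini-Hochberg adjusted p under 0.05 over 13679 genes, and in this comparison 51.8% of all genes were called, against 27 of the 36 synthetase genes. The libraries of 31 of the 36 did not overlap between the groups, nor did those of 60.9% of all genes. The median change was -0.17 for the ATF4-listed genes, 0.19 for the other cytosolic genes and 0.11 for the mitochondrial genes, against -0.01 for all genes. On this scale a change is understated for genes of low level. The ATF4 list was chosen with earlier results of these data known, so the split by list is a description only.

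**Figure D2:**
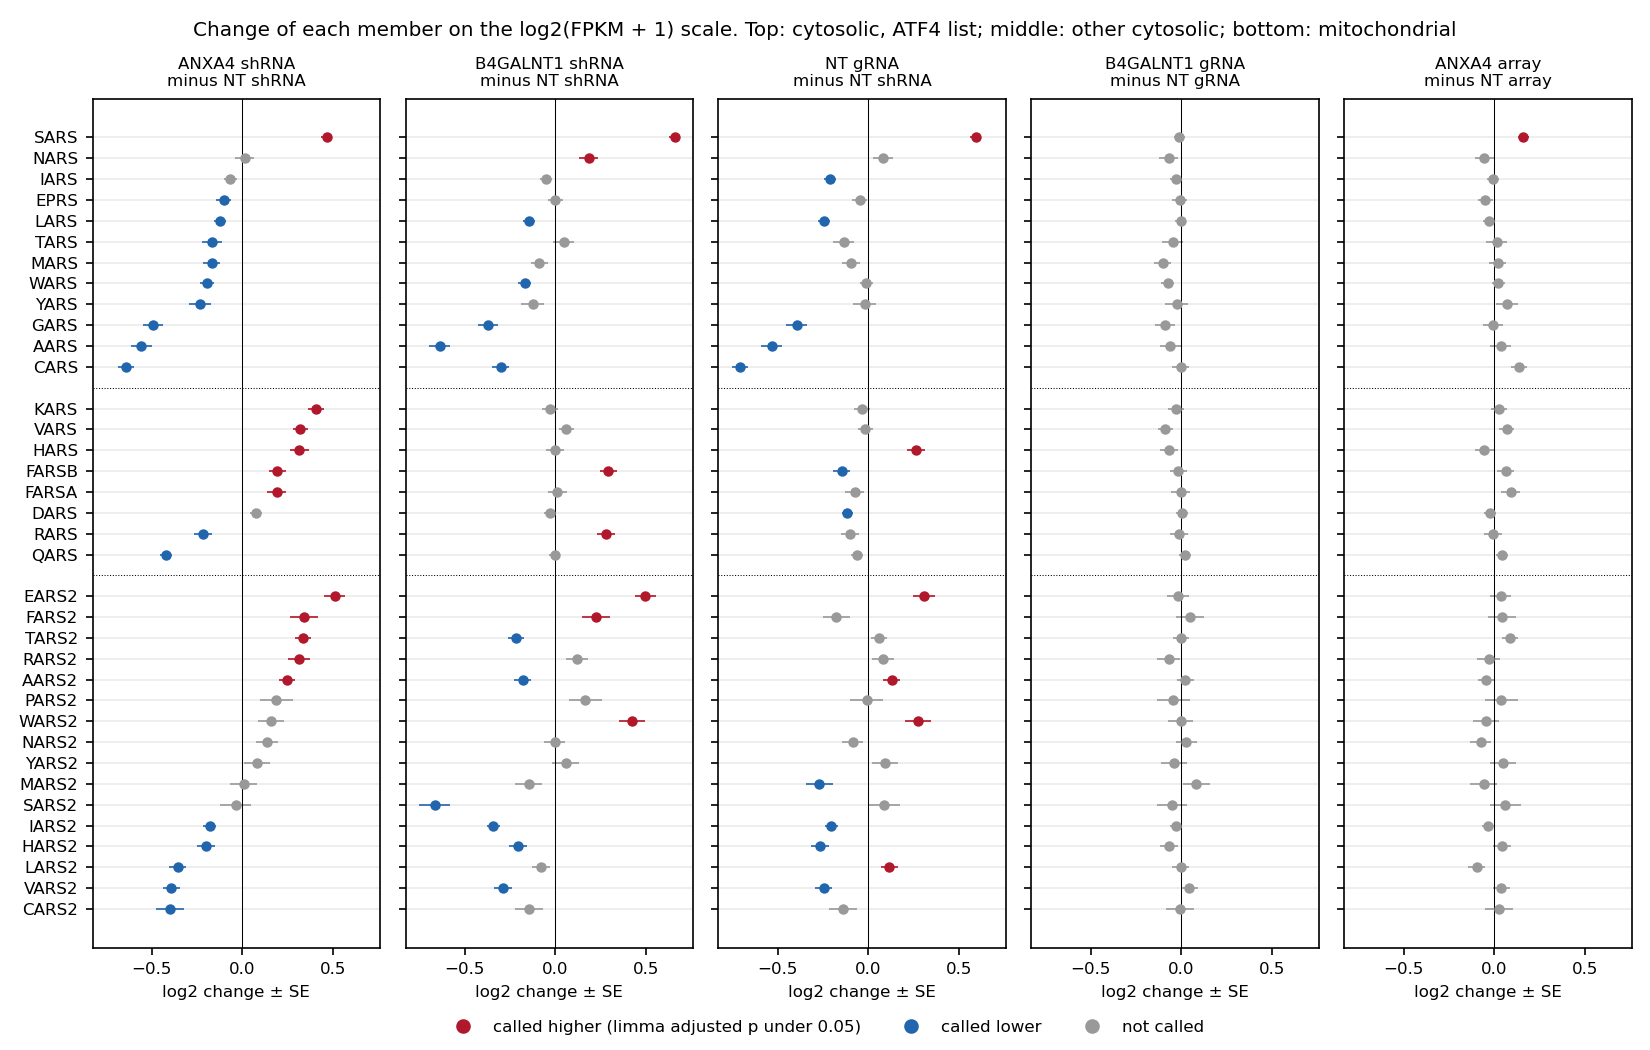
Change of each of the 36 genes on the log2(FPKM + 1) scale with its SE in 5 comparisons, with ATF4-listed cytosolic genes above, other cytosolic genes in the middle and mitochondrial genes below. Red and blue mark genes called higher and lower by limma, of which the ANXA4 shRNA column holds 27 and the B4GALNT1 gRNA column 0.

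CARS had 25.3, 25.5 and 24.5 FPKM with the ANXA4 shRNA, against 38.6, 40.4 and 40.2 FPKM with the NT shRNA. All ANXA4 shRNA libraries lay below all NT shRNA libraries. CARS charges the cysteine transfer RNA (NM_001751, hg19 chromosome 11, 3022152 to 3078681, minus strand), and its mean fell by 36.8% (log2 change -0.64 ± 0.046 SE, limma adjusted p = 9.04e-10). AARS, the alanine enzyme (NM_001605, hg19 chromosome 16, 70286297 to 70323412, minus strand), had 73.0, 71.8 and 76.3 FPKM with the ANXA4 shRNA, against 107, 111 and 109 FPKM with the NT shRNA. The groups again did not overlap, and AARS fell by 32.4% (log2 change -0.56 ± 0.058 SE, limma adjusted p = 1.53e-07). GARS (NM_002047, hg19 chromosome 7, 30634509 to 30673648, plus strand), which serves both compartments, had 76.9, 76.9 and 73.0 FPKM with the ANXA4 shRNA, against 111, 105 and 104 FPKM with the NT shRNA. It fell by 29.3% (log2 change -0.49 ± 0.056 SE, limma adjusted p = 4.73e-07). The other 6 ATF4-listed genes that fell did so by less, with log2 changes between -0.10 (EPRS) and -0.23 (YARS). IARS and NARS were not called, at -0.07 and 0.01.

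SARS (NM_006513, hg19 chromosome 1, 109756515 to 109780804, plus strand) stood apart from the other ATF4-listed genes. It had 122, 127 and 123 FPKM with the ANXA4 shRNA, against 90.3, 89.3 and 89.1 FPKM with the NT shRNA. All treated libraries were above all NT shRNA libraries, by 38.5% on the mean (log2 change 0.47 ± 0.031 SE, limma adjusted p = 3.13e-10).

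Among cytosolic genes not on the ATF4 list, KARS and QARS, whose enzymes sit in the same complex, moved most and in opposite directions. KARS (NM_005548, hg19 chromosome 16, 75661622 to 75681585, minus strand) had 125, 126 and 125 FPKM with the ANXA4 shRNA, against 95.5, 97.7 and 89.7 FPKM with the NT shRNA. It rose by 32.5% (log2 change 0.40 ± 0.044 SE, limma adjusted p = 3.34e-07). QARS, the glutamine enzyme (hg19 chromosome 3, 49133365 to 49142562, minus strand), had 64.1, 67.6 and 66.1 FPKM with the ANXA4 shRNA, against 87.7, 92.3 and 86.5 FPKM with the NT shRNA. The libraries did not overlap for either gene, and QARS fell by 25.8% (log2 change -0.42 ± 0.033 SE, limma adjusted p = 2.87e-09). The QARS row, like that of TARS2, carries a non-coding transcript ID in the table and overlaps a microRNA gene on the same strand (MIR6890 in QARS, MIR6878 in TARS2). VARS rose by 25.3%, HARS by 25.1%, FARSB by 14.6% and FARSA by 14.0%, so both subunits of the phenylalanine enzyme were called in the same direction. Of the 8 synthetases of the complex 1 rose (KARS) and 5 fell (EPRS, LARS, MARS, QARS and RARS), with DARS and IARS not called. Outside it, 5 of 12 rose and 6 fell, where 25.6% of all genes rose and 26.3% fell. With the B4GALNT1 shRNA 1 of the 8 rose and 1 fell, where 18.4% of all genes rose and 26% fell. With the NT gRNA against the NT shRNA 0 rose and 3 fell, where 22.4% and 26.5% of all genes did. With the ANXA4 shRNA against the B4GALNT1 shRNA 2 rose and 2 fell, where 27.1% and 19.6% of all genes did.

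EARS2 (NM_001083614, hg19 chromosome 16, 23533334 to 23568696, minus strand) moved most among the mitochondrial genes. Its enzyme charges glutamate and, in mitochondria, also makes the Glu-tRNA(Gln) that is then amidated. EARS2 had 15.2, 17.0 and 16.4 FPKM with the ANXA4 shRNA, against 11.3, 10.3 and 11.6 FPKM with the NT shRNA. The groups did not overlap, and it rose by 46.0% (log2 change 0.51 ± 0.059 SE, limma adjusted p = 6.36e-07). FARS2, the phenylalanine enzyme, had 12.8, 14.0 and 12.5 FPKM with the ANXA4 shRNA, against 10.4, 10.6 and 9.32 FPKM with the NT shRNA, a rise of 29.2% (limma adjusted p = 0.000915). TARS2 (threonine) had 42.2, 43.3 and 45.2 FPKM with the ANXA4 shRNA, against 34.6, 36.2 and 32.2 FPKM with the NT shRNA, a rise of 26.9% (limma adjusted p = 3.14e-06). Both were higher in every ANXA4 shRNA library than in any NT shRNA library. RARS2 and AARS2 also rose, by 25.1% and 19.9%.

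The 5 mitochondrial genes that fell with the ANXA4 shRNA were CARS2, VARS2, LARS2, HARS2 and IARS2. CARS2, whose enzyme uses cysteine, had 14.8, 16.3 and 13.8 FPKM with the ANXA4 shRNA, against 19.6, 20.7 and 19.8 FPKM with the NT shRNA. It fell by 25.3% with no overlap between the groups (log2 change -0.40 ± 0.076 SE, limma adjusted p = 0.000207). VARS2 fell by 24.5%, LARS2 by 23.0%, HARS2 by 13.8% and IARS2 by 12.0%. MARS2, NARS2, PARS2, SARS2, WARS2 and YARS2 were not called.

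With the ANXA4 shRNA the cytosolic and the mitochondrial gene were both called for 7 of the 13 paired amino acids. The direction was the same for cysteine and leucine. It was opposite for alanine, histidine, arginine, threonine and valine, where 25.6% of all genes were higher and 26.3% lower. Outside these pairs FARSA, FARSB and FARS2 (phenylalanine) all rose. EPRS fell while EARS2, which also charges glutamate, rose, and PARS2 (proline) was not called. The histidine pair shares the short region between its starts printed above. HARS had 48.6, 47.6 and 44.7 FPKM with the ANXA4 shRNA, against 36.8, 38.4 and 37.5 FPKM with the NT shRNA. HARS2 had 19.3, 20.3 and 19.6 FPKM with the ANXA4 shRNA, against 23.4, 21.4 and 23.8 FPKM with the NT shRNA. HARS was thus higher (log2 change 0.31 ± 0.050 SE, limma adjusted p = 3.10e-05) and HARS2 lower (log2 change -0.20 ± 0.050 SE, limma adjusted p = 0.00221), neither with overlapping libraries. The 2 genes are close in sequence. The hg19 transcript models of the deposited table overlap at their 5′ ends on opposite strands, while the RefSeq starts on GRCh38.p14 used above have 84 bases between them. The counting used strand, per the file headers, and how reads matching both genes were treated is not given in the sources used here.

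Split by the promoter letters, the 7 cytosolic genes with a CARE match (AARS, CARS, GARS, IARS, MARS, NARS and TARS) were 0 higher, 5 lower and 2 not called with the ANXA4 shRNA, with a median change of -0.17. The 9 cytosolic genes with a window and no match were 5 higher and 4 lower, with a median of 0.19. Of all genes 25.6% were higher and 26.3% lower. With the B4GALNT1 shRNA the genes with a match were 1 higher and 3 lower (median -0.09) and those without 3 higher and 1 lower (median -0.0012). Of all genes 18.4% were higher and 26% lower there. With the NT gRNA against the NT shRNA the genes with a match were 0 higher and 4 lower (median -0.21) and those without 2 higher and 1 lower (median -0.05). Of all genes 22.4% were higher and 26.5% lower there. The 7 genes with a match are all on the ATF4 list, so the split repeats part of the counts by list. The 3 comparisons share the NT shRNA libraries. ATF4 itself had 127 ± 5.44 FPKM with the ANXA4 shRNA and 227 ± 5.32 FPKM with the NT shRNA (SD, n = 3 each; log2 change -0.84, limma adjusted p = 1.33e-10). It was also lower with the B4GALNT1 shRNA, at 207 ± 8.28 FPKM (log2 change -0.14, limma adjusted p = 0.0382) but higher with the NT gRNA (log2 change 0.29, limma adjusted p = 0.000149), each against the NT shRNA.

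**Figure D3:**
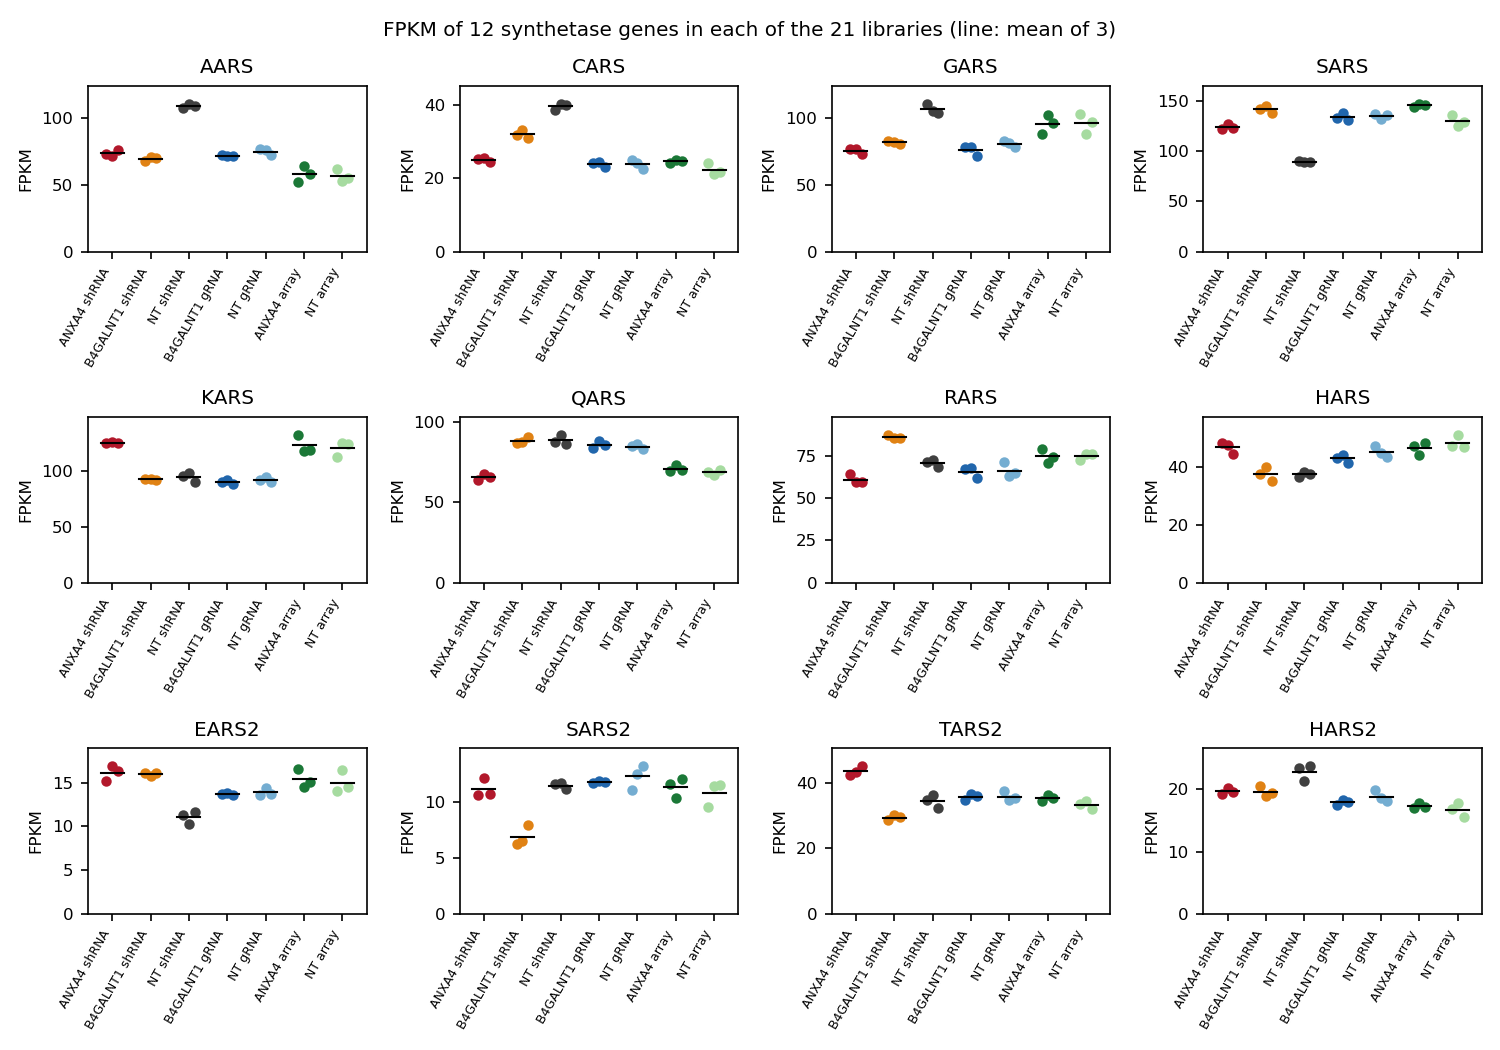
FPKM of 12 synthetase genes in each of the 21 libraries by group, with a line at each mean of 3; every axis starts at 0. AARS, CARS and GARS are highest and SARS and EARS2 lowest in the NT shRNA libraries among the shRNA and single-guide groups, while SARS2 is low in the B4GALNT1 shRNA libraries alone.

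With the B4GALNT1 shRNA 18 of the 36 genes were called against the NT shRNA, a share near the 44.4% of all genes called in that comparison. Of the ATF4-listed genes 5 of 12 fell (AARS, CARS, GARS, LARS and WARS) and 2 rose (NARS and SARS). FARSB and RARS rose among the other 8. Of the mitochondrial genes 3 rose (EARS2, FARS2 and WARS2) and 6 fell, where 18.4% of all genes were called higher and 26% lower. The libraries of 26 of the 36 did not overlap, nor did those of 55.5% of all genes. The median change was -0.02 for cytosolic and -0.11 for mitochondrial genes, against -0.04 for all genes. The cytosolic median changed sign, to values up to 0.03, when libraries were centred on their medians, with voom on the recovered reads and in the authors' deposited table.

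SARS2, the mitochondrial serine enzyme (NM_017827, hg19 chromosome 19, 39405904 to 39421536, minus strand), had 6.21, 6.52 and 7.98 FPKM with the B4GALNT1 shRNA, against 11.6, 11.7 and 11.1 FPKM with the NT shRNA. It fell by 39.8% (log2 change -0.66 ± 0.084 SE, limma adjusted p = 3.20e-06). The mean of SARS2 was between 10.8 and 12.3 FPKM in the other 6 groups. Its cytosolic counterpart SARS moved the other way, with 142, 145 and 139 FPKM with the B4GALNT1 shRNA, against 90.3, 89.3 and 89.1 FPKM with the NT shRNA. SARS rose by 58.3% with no overlap (log2 change 0.66 ± 0.031 SE, limma adjusted p = 4.89e-12).

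AARS had 67.9, 70.9 and 70.4 FPKM with the B4GALNT1 shRNA, against 107, 111 and 109 FPKM with the NT shRNA, and fell by 36.1% (limma adjusted p = 4.12e-08). RARS, the arginine enzyme, had 87.4, 85.7 and 85.4 FPKM with the B4GALNT1 shRNA, against 71.6, 72.7 and 68.6 FPKM with the NT shRNA, and rose by 21.5% (limma adjusted p = 0.000145). RARS thus moved in the direction opposite to its fall with the ANXA4 shRNA, and so did AARS2 and TARS2. WARS2, the mitochondrial tryptophan enzyme, had 11.6, 12.6 and 13.3 FPKM with the B4GALNT1 shRNA, against 9.37, 9.14 and 8.64 FPKM with the NT shRNA. It rose by 38.1%, with every B4GALNT1 shRNA library above every NT shRNA library (log2 change 0.42 ± 0.070 SE, limma adjusted p = 7.00e-05). IARS2 had 56.7, 58.1 and 56.4 FPKM with the B4GALNT1 shRNA, against 75.0, 73.2 and 69.6 FPKM with the NT shRNA, and fell by 21.4% (limma adjusted p = 2.05e-07).

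The same shRNA left CARS at 31.9, 33.3 and 30.9 FPKM, against 38.6, 40.4 and 40.2 FPKM with the NT shRNA, a fall of 19.3% (limma adjusted p = 2.67e-05). GARS had 83.2, 82.6 and 80.9 FPKM with the B4GALNT1 shRNA, against 111, 105 and 104 FPKM with the NT shRNA (limma adjusted p = 2.15e-05). Neither gene overlapped between the groups. EARS2 had 16.1, 15.8 and 16.1 FPKM with the B4GALNT1 shRNA, against 11.3, 10.3 and 11.6 FPKM with the NT shRNA, and rose by 44.5% (limma adjusted p = 1.35e-06). FARSB had 49.1, 51.8 and 51.0 FPKM with the B4GALNT1 shRNA, against 42.0, 40.9 and 40.7 FPKM with the NT shRNA, and rose by 22.9% (limma adjusted p = 5.26e-05). FARSA, which encodes its partner subunit, was not called here (log2 change 0.01).

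The RfxCasR B4GALNT1 gRNA was set against the NT gRNA with the same spread in the model. The limma fit called 0 of the 36 genes and 0.00731% of all genes, with 0 higher and 0 lower calls also from voom on recovered reads and from the authors' deposited table. At an unadjusted p under 0.05 limma passed 1 gene, MARS, against 3.82% of all genes. The changes of the 36 genes ran between -0.10 and 0.08 on the log2 scale, where those with the B4GALNT1 shRNA ran between -0.66 and 0.66. MARS, the methionine enzyme, had 81.3, 83.5 and 80.9 FPKM with the B4GALNT1 gRNA, against 89.7, 90.1 and 84.4 FPKM with the NT gRNA. The libraries did not overlap, but the difference did not pass the threshold (log2 change -0.10 ± 0.048 SE, limma adjusted p = 1.00). The libraries of 4 genes (GARS, MARS, VARS and NARS2) did not overlap between the groups, and 11.8% of all genes had libraries that did not. AARS stood at 72.5, 71.4 and 71.5 FPKM with the B4GALNT1 gRNA, against 76.6, 76.3 and 72.1 FPKM with the NT gRNA. SARS2, the gene that moved most with the B4GALNT1 shRNA, had 11.7, 11.9 and 11.8 FPKM with the B4GALNT1 gRNA, against 11.1, 12.5 and 13.3 FPKM with the NT gRNA. For both genes the groups overlapped.

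The shRNA and RfxCasR changes for B4GALNT1 differed by the test of the difference itself for 15 of the 36 genes, against 29.8% of all genes. The shRNA change was above the gRNA change for 6 of them (12.9% of all genes) and below it for 9 (16.9% of all genes). The largest differences were 0.67 ± 0.044 (SE) on the log2 scale for SARS (limma adjusted p = 1.80e-09), -0.61 ± 0.119 for SARS2 (limma adjusted p = 0.000662), -0.58 ± 0.082 for AARS (limma adjusted p = 2.73e-05) and 0.51 ± 0.083 for EARS2 (limma adjusted p = 0.000108).

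In the arrays SARS was the single gene called, with 144, 148 and 147 FPKM in the libraries labelled ANXA4 array, against 136, 126 and 130 FPKM in those labelled NT array. The groups did not overlap, and the mean was 11.8% higher (log2 change 0.16 ± 0.031 SE, limma adjusted p = 0.0257), where 0.285% of all genes were called, 0.146% higher and 0.139% lower. The call is weak: it was lost when any 1 of replicates 2 and 3 of either array group was left out, with limma adjusted p between 0.0721 and 0.0998. In the authors' deposited table the SARS change has the other sign, -0.15, with an adjusted p of 0.595, and all 36 genes have the sign opposite to the labelled difference there. ANXA4 itself has a log2 fold change of -1.21 there, against 1.00 in the labelled difference. Whether the labels of the 2 array groups are exchanged was not tested. In the authors' deposited tables for the other 3 comparisons 0, 6 and 3 genes differ in sign from the labelled difference. CARS had 24.333, 25.003 and 24.652 FPKM in the libraries labelled ANXA4 array, against 24.08, 21.244 and 21.759 FPKM in those labelled NT array, and was not called (limma adjusted p = 0.251). CARS, SARS and TARS2 were the 3 genes whose libraries did not overlap, a state that 10.3% of all genes shared, and at an unadjusted p under 0.05 limma passed CARS and SARS, against 10.8% of all genes. The median change was 0.02 for cytosolic and 0.03 for mitochondrial genes.

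The controls of the 2 methods also differed from each other. With the NT gRNA 17 of the 36 genes were called against the NT shRNA, where 48.9% of all genes were, 22.4% higher and 26.5% lower. The libraries of 24 did not overlap, nor did those of 60.7% of all genes. Of the ATF4-listed genes 5 of 12 fell and 1 rose, of the other cytosolic genes 2 of 8 fell and 1 rose, and of the mitochondrial genes 4 of 16 fell and 4 rose. CARS had 24.96, 24.254 and 22.621 FPKM with the NT gRNA, against 38.6, 40.4 and 40.2 FPKM with the NT shRNA. The groups did not overlap, and CARS was lower by 39.7% on the mean (log2 change -0.71 ± 0.046 SE, limma adjusted p = 6.91e-10). SARS had 138, 133 and 136 FPKM with the NT gRNA, against 90.3, 89.3 and 89.1 FPKM with the NT shRNA, and was 51.3% higher (log2 change 0.59 ± 0.031 SE, limma adjusted p = 3.09e-11). AARS had 76.6, 76.3 and 72.1 FPKM with the NT gRNA, against 107, 111 and 109 FPKM with the NT shRNA (limma adjusted p = 5.23e-07).

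GARS had 82.95, 81.417 and 78.556 FPKM with the NT gRNA, against 111, 105 and 104 FPKM with the NT shRNA (limma adjusted p = 1.12e-05). MARS2 had 5.47, 5.33 and 5.94 FPKM with the NT gRNA, against 7.40, 7.13 and 6.29 FPKM with the NT shRNA (limma adjusted p = 0.00574). For the histidine pair the 2 genes again stood on opposite sides. HARS had 47.3, 44.9 and 43.4 FPKM with the NT gRNA, against 36.8, 38.4 and 37.5 FPKM with the NT shRNA (limma adjusted p = 0.00029). HARS2 had 19.9, 18.6 and 18.1 FPKM with the NT gRNA, against 23.4, 21.4 and 23.8 FPKM with the NT shRNA (limma adjusted p = 0.000255). Neither gene overlapped between the groups. EARS2 had 13.6, 14.4 and 13.8 FPKM with the NT gRNA, against 11.3, 10.3 and 11.6 FPKM with the NT shRNA (limma adjusted p = 0.000287). WARS2 had 12.2, 10.5 and 10.9 FPKM with the NT gRNA, against 9.37, 9.14 and 8.64 FPKM with the NT shRNA (limma adjusted p = 0.00341). AARS2 had 15.588, 15.565 and 16.023 FPKM with the NT gRNA, against 13.7, 14.4 and 14.8 FPKM with the NT shRNA (limma adjusted p = 0.0283). The AARS2 call was lost when any 1 library of these 2 groups other than NT shRNA replicate 3 was left out (limma adjusted p between 0.0501 and 0.127). All 3 mitochondrial genes were higher in each NT gRNA library than in any NT shRNA library.

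The ANXA4 shRNA, B4GALNT1 shRNA and NT gRNA comparisons share the NT shRNA libraries, so a gene that is high or low in those libraries moves in all 3. In that order AARS changed by -32.4%, -36.1% and -31.2%, CARS by -36.8%, -19.3% and -39.7%, SARS by 38.5%, 58.3% and 51.3%, and EARS2 by 46.0%, 44.5% and 25.7%. The NT shRNA group held the highest of the 7 group means for 8 of the 20 cytosolic genes (40%), against 22.8% of all genes tested. For the mitochondrial genes it was the ANXA4 shRNA group, highest for 8 of 16 (50%), against 22.7% of all genes.

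The ANXA4 shRNA was also set directly against the B4GALNT1 shRNA, where the difference of means holds no NT shRNA value while the spread still comes from all 21 libraries. Of the 36 genes 19 were called, where 46.7% of all genes were, and the libraries of 27 did not overlap, nor did those of 56.4% of all genes. Of the ATF4-listed genes 4 of 12 fell (CARS, NARS, SARS and TARS) and none rose, where 19.6% of all genes were lower. Of the other cytosolic genes 5 of 8 rose (DARS, FARSA, HARS, KARS and VARS) and 2 fell (QARS and RARS), where 27.1% of all genes were higher. Of the mitochondrial genes 5 rose (AARS2, IARS2, RARS2, SARS2 and TARS2) and 3 fell (CARS2, LARS2 and WARS2).

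RARS had 64.0, 59.5 and 59.2 FPKM with the ANXA4 shRNA, against 87.4, 85.7 and 85.4 FPKM with the B4GALNT1 shRNA. The groups did not overlap, and the mean was lower by 29.3% (log2 change -0.49 ± 0.050 SE, limma adjusted p = 1.33e-07). QARS had 64.1, 67.6 and 66.1 FPKM with the ANXA4 shRNA, against 86.8, 88.0 and 90.6 FPKM with the B4GALNT1 shRNA (limma adjusted p = 4.71e-09). KARS had 125, 126 and 125 FPKM with the ANXA4 shRNA, against 92.7, 92.7 and 92.0 FPKM with the B4GALNT1 shRNA (limma adjusted p = 1.92e-07). QARS was thus low and KARS high in the ANXA4 shRNA libraries against either of the other shRNAs, while AARS, CARS and GARS were high in the NT shRNA libraries. TARS2 had 42.2, 43.3 and 45.2 FPKM with the ANXA4 shRNA, against 28.5, 30.1 and 29.4 FPKM with the B4GALNT1 shRNA, and was 48.4% higher (limma adjusted p = 5.43e-09). AARS2 had 16.3, 17.3 and 17.9 FPKM with the ANXA4 shRNA, against 12.6, 12.5 and 12.5 FPKM with the B4GALNT1 shRNA (limma adjusted p = 4.11e-07). The groups did not overlap for either gene.

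SARS2 had 10.6, 12.2 and 10.7 FPKM with the ANXA4 shRNA, against 6.21, 6.52 and 7.98 FPKM with the B4GALNT1 shRNA, and was 61.8% higher (limma adjusted p = 5.71e-06). HARS had 48.6, 47.6 and 44.7 FPKM with the ANXA4 shRNA, against 37.579, 39.969 and 35.156 FPKM with the B4GALNT1 shRNA (limma adjusted p = 3.75e-05), while HARS2 was not called (log2 change 0.00). CARS had 25.3, 25.5 and 24.5 FPKM with the ANXA4 shRNA, against 31.9, 33.3 and 30.9 FPKM with the B4GALNT1 shRNA (limma adjusted p = 5.86e-06). LARS2, the mitochondrial leucine enzyme, had 13.8, 13.2 and 14.7 FPKM with the ANXA4 shRNA, against 16.6, 17.6 and 16.8 FPKM with the B4GALNT1 shRNA (limma adjusted p = 8.78e-05). WARS2 had 9.71, 9.67 and 11.3 FPKM with the ANXA4 shRNA, against 11.6, 12.6 and 13.3 FPKM with the B4GALNT1 shRNA (limma adjusted p = 0.00428). SARS2 and HARS were thus higher, and CARS, LARS2 and WARS2 lower, in every ANXA4 shRNA library than in any B4GALNT1 shRNA library.

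**Figure D4:**
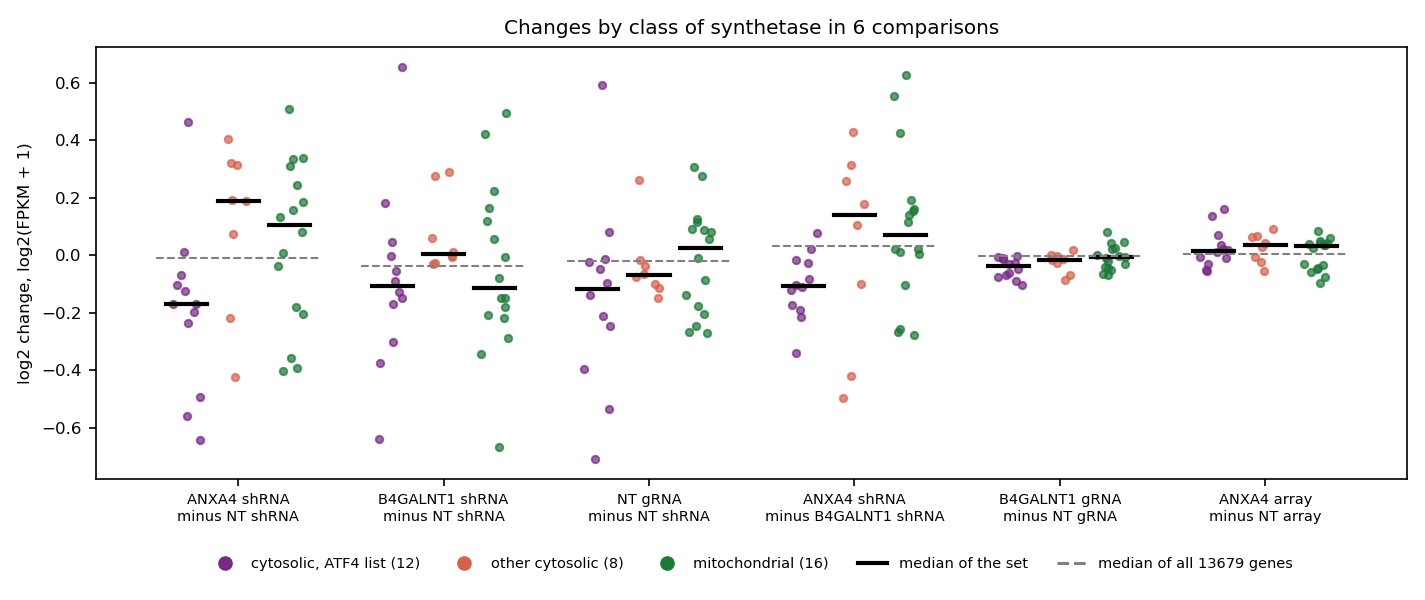
Change of each gene on the log2(FPKM + 1) scale by class in 6 comparisons; black lines are class medians and dashed lines the median of all 13679 genes tested. The ATF4-listed median is -0.17 and the other cytosolic median 0.19 with the ANXA4 shRNA, and all medians lie within 0.04 of 0 in the B4GALNT1 gRNA and array comparisons.

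Genes that work beside the synthetases were counted from lists, beside which stand the shares of all genes called (25.6% higher and 26.3% lower with the ANXA4 shRNA, 18.4% and 26% with the B4GALNT1 shRNA). With the ANXA4 shRNA the complex scaffolds AIMP1 and AIMP2 rose, with AIMP1 at 22.6 ± 0.923 FPKM with the ANXA4 shRNA and 18.5 ± 0.480 FPKM with the NT shRNA (SD, n = 3 each; limma adjusted p = 0.000307), and EEF1E1 was not called. Of 4 genes that finish mitochondrial glutamine and methionine transfer RNAs, 2 rose and 1 fell. QRSL1, a subunit of the amidotransferase that acts on the product of EARS2, had 10.2 ± 0.267 FPKM with the ANXA4 shRNA and 6.18 ± 0.189 FPKM with the NT shRNA (limma adjusted p = 3.81e-08). GATB, another subunit, rose and GATC, the third, fell. QRSL1, GATB, GATC and MTFMT all rose with the B4GALNT1 shRNA. The first 3 rose with the NT gRNA against the NT shRNA, where 22.4% of all genes were higher.

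Of 9 mitochondrial translation factors 5 rose and 0 fell with the ANXA4 shRNA, where 25.6% of all genes rose and 26.3% fell. With the B4GALNT1 shRNA 3 rose and 2 fell, where 18.4% of all genes rose and 26% fell. GFM2, which splits mitochondrial ribosomes after termination, had 20.4 ± 0.693 FPKM with the ANXA4 shRNA and 11.7 ± 0.544 FPKM with the NT shRNA (log2 change 0.75, limma adjusted p = 6.01e-11). Of 9 enzymes of transfer RNA editing, recycling, export and selenocysteine synthesis, 4 rose and 2 fell with the ANXA4 shRNA, and 4 rose and 4 fell with the B4GALNT1 shRNA, against the same shares of all genes. XPOT, the exporter of transfer RNA, had 29.5 ± 0.362 FPKM with the ANXA4 shRNA and 40.7 ± 1.22 FPKM with the NT shRNA (log2 change -0.45, limma adjusted p = 4.29e-06). XPO5, which exports microRNA precursors, rose with the ANXA4 shRNA and fell with the B4GALNT1 shRNA.

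Of 25 genes of ATF4 signalling and amino acid supply, 17 fell and 2 rose with the ANXA4 shRNA, where 26.3% of all genes fell and 25.6% rose, with a median change of -0.40. Among those that fell ATF4, DDIT4 and the glutamine carrier SLC1A5 had the smallest p, and the genes that rose were ATF3 and ALDH18A1. With the B4GALNT1 shRNA 13 of the 25 fell and 0 rose, where 26% of all genes fell, with a median of -0.14, and among them PYCR1, SLC7A1 and SLC7A11 had the smallest p. With the NT gRNA 6 rose and 6 fell against the NT shRNA, where 22.4% of all genes rose and 26.5% fell. ATF4 stood at 279 ± 3.52 FPKM with the NT gRNA and 227 ± 5.32 FPKM with the NT shRNA. Of the 12 synthetases listed as its targets 5 were lower there, 1 was higher and 6 were not called. Whether ATF4 had a part in these changes was not tested. None of the 25 was called with the B4GALNT1 gRNA or between the arrays.

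In the authors' deposited tables all 36 genes have a row in each of the 4 comparisons. The authors' deposited table for the ANXA4 shRNA gives 27 at an adjusted p under 0.05, 11 higher and 16 lower, the same 27 genes with the same signs as limma. The authors' deposited table for the B4GALNT1 shRNA gives 20, of which 18 were also called by limma with the same sign. The authors' deposited tables for the gRNA and the arrays give 0.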

How the data were processed

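Reads were aligned to hg19 with tools that include STAR and counted with HOMER, per the submitters' processing notes. Per the file headers, sense-strand exon reads were condensed to 1 transcript per gene and expressed by the authors as FPKM, with the exon length of each gene beside them. The authors' deposited comparison tables give log2 fold changes, adjusted p-values and a mean normalized count signal per gene. DESeq2 1.14.1 and R 3.3.2 are named in the submitters' processing notes, and how the mean signal was made is not given in the sources used here.

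From the FPKM table, a linear model of log2(FPKM + 1) over all 21 libraries in 7 groups was made with limma (version 3.58.1, under R 4.3.3), with an intensity trend. Testing was limited to the 13679 genes that reached 1 FPKM in 3 or more libraries, and Benjamini-Hochberg adjusted p under 0.05 was called. All 36 synthetase genes passed this filter. FPKM times exon length gave whole reads, within 0.1 of a whole number, for 93.0% to 99.95% of values per library, and voom on those reads was an alternative. With 3 libraries against 3 an exact permutation test cannot go below p = 0.1, so none was used. The fit was tested on simulated data. In each simulated comparison 50 genes were changed by 0.25, 50 by 0.5 and 100 by 1 on the log2 scale, of 13679. That is far fewer than the 51.8% of genes called with the ANXA4 shRNA. The shares recovered may therefore differ in the data. For the ANXA4 shRNA comparison of 13679 genes it recovered 44% of genes changed by 0.25, 80% by 0.5 and 99% by 1 on the log2 scale. False calls were 2 of 163 calls there, 14 of 169 for the B4GALNT1 shRNA, 15 of 174 for the B4GALNT1 gRNA, 8 of 171 for the arrays, 8 of 162 for the NT gRNA against the NT shRNA and 8 of 167 between the targeting shRNAs.

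Library values were given for up to 5 genes per direction and comparison with the largest change among called genes whose libraries did not overlap, and for the highest and lowest gene of each compartment. From the other lists up to 3 called genes with the smallest p were given. Synthetase genes or neighbours named beyond that were chosen after their values were seen. The genes, the ATF4 list, the other lists and the tests were chosen with earlier results of these data known. Promoter sequences are from RefSeq (GRCh38.p14) and gene coordinates from the deposited table (hg19).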

Additional observations from a re-analysis of the deposited data

Results flagged for a closer look

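Of the 36 genes, 15 gave a change with the B4GALNT1 shRNA that differed from the change with the B4GALNT1 gRNA, each against its own NT control, by limma's test of the difference over all genes. On the log2(FPKM + 1) scale the shRNA change minus the gRNA change was 0.67 for SARS, 0.51 for EARS2, 0.43 for WARS2, 0.31 for FARSB, 0.29 for RARS and 0.25 for NARS. It was -0.61 for SARS2, -0.58 for AARS, -0.33 for VARS2, -0.31 for IARS2, -0.30 for CARS, -0.28 for GARS, -0.22 for TARS2, -0.20 for AARS2 and -0.14 for LARS. The comparison was added after the data were seen, and 29.8% of all genes differed in the same way. The difference also holds the level of the NT shRNA libraries, where AARS was highest and SARS and EARS2 lowest of the groups used. What sets the methods or their controls apart was not tested.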

How the results depend on the processing

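The number of synthetase genes called with the ANXA4 shRNA ranged over 25 to 27 when 1 library was left out (7 to 9 ATF4-listed genes lower), with the B4GALNT1 shRNA over 17 to 19, with the B4GALNT1 gRNA it stayed at 0, with the NT gRNA against the NT shRNA it ranged over 14 to 17, and between the targeting shRNAs over 17 to 20. Between the arrays it ranged over 0 to 1 and was 0 at an adjusted p under 0.01, in the authors' deposited table, without the intensity trend, with only the groups compared and with quantile normalization. SARS there was reversed, at -0.15, in the authors' deposited table, where all 36 genes have the opposite sign. The median change of cytosolic genes with the B4GALNT1 shRNA was 0.0224 in the authors' deposited table, 0.0310 with libraries centred on their medians and 0.0230 with voom, against -0.02. With the NT gRNA against the NT shRNA it was -0.041 centred and -0.13 with quantile normalization, against -0.09. Between the targeting shRNAs it was -0.13 both centred and with voom, against -0.09. The causes were not tested. Of 676 values for 41 named results, 661 kept their direction and call, 14 lost the call (8 for SARS between the arrays and 6 for AARS2 in NT gRNA against NT shRNA) and 1 was reversed.

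Over the genes tested, deviations of same-numbered libraries from their group means correlated between -0.146 and 0.0901. Replicate 3 had the lowest share of recovered reads in genes in every group. For the NT shRNA it was 84.8% in replicate 3 and 85.7% in replicates 1 and 2. In every shRNA and single-guide group replicate 1 had the most reads and replicate 2 the fewest. Whether same-numbered libraries were handled together was not tested. With replicate number as a block the counts called were 27 (ANXA4 shRNA), 18 (B4GALNT1 shRNA), 0 (B4GALNT1 gRNA), 1 (arrays), 19 (NT gRNA against NT shRNA), 20 (between the targeting shRNAs) and 15 (difference between methods). SARS between the arrays kept its call under the block (limma adjusted p = 0.0399).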
